A study of Homo sapiens with 24 samples.

Results

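AsPC-1 is an established line of human pancreatic ductal adenocarcinoma that grows attached to plastic as an epithelial tumour cell. The 72 h cultures that received vehicle were compared with the 24 h cultures that received vehicle, which asks how the transcriptome moved with time in culture when no drug was present. The comparison rests on 6 arrays of the 24 in the series, 3 biological replicates at 24 h and 3 at 72 h. Both groups were AsPC-1 cells kept in RPMI 1640 medium with fetal bovine serum, penicillin and streptomycin, given the vehicle control, and they differ in time only. The labels do not say what the vehicle was. The sources used here give no seeding density, medium change or culture from the start of treatment. The remaining groups of the series were AsPC-1 with PD-0332991 at 5 µM (palbociclib, an inhibitor of the cyclin-dependent kinases CDK4 and CDK6) and the line COLO-357 in DMEM with vehicle or drug, each at 24 h and 72 h. Total RNA was labelled with biotin and hybridised to Illumina bead arrays with 47223 probes, of which 24750 were detected on enough arrays to be tested. The 6 lists of changed genes that the authors deposited gave names to 685 tested probes of 605 genes, and only these genes are named below.

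A carcinoma line in a dish is not at a steady state, since the cells divide, touch each other and use up the medium. Serum and growth factors induce immediate early transcription factors, matricellular proteins and the urokinase system in sparse epithelial cells, and intestinal carcinoma lines are known to build a brush border after they become confluent. Glutathione peroxidases, aldo-keto reductases and aldehyde dehydrogenases clear peroxides and reactive carbonyls, and defensins and complement proteins are secreted by epithelia as part of surface defence. The vehicle arm of a drug experiment is the baseline for each drug effect, and a moving baseline enters each later drug comparison.

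Between 16440 and 18586 probes were detected on the 6 arrays. The 24 h vehicle group was the most variable of the 8 groups, with a median SD over probes of 0.248 on the log2 scale (n = 3 arrays), against 0.157 in the 72 h vehicle group and 0.150 to 0.172 in the other 6 groups. Replicate 1 of the 24 h group deviated from the other 2 arrays of its group by a median of 0.296, replicate 2 by 0.212 and replicate 3 by 0.236, whereas the 3 arrays at 72 h deviated by 0.146 to 0.159. All 3 arrays of the 24 h group thus stood above the arrays of the other groups, and replicate 1 stood highest. Of the fixed markers of ductal tumour epithelium 4 had a named probe, and AGR2, CLDN7 and MSLN were detected on all 6 arrays, while MUC5AC was detected on 1 of 3 arrays at 24 h and 2 of 3 at 72 h. None of the fixed markers of acinar, endocrine, fibroblast, endothelial or immune cells had a named probe, so other cell types were not checked. The sources used here name no slide, scan or extraction date, and any of them that followed the harvest time cannot be told apart from it. Each array measured RNA of a whole culture, so more cells that express a gene and more RNA of it per cell cannot be told apart.

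**Figure D1:**
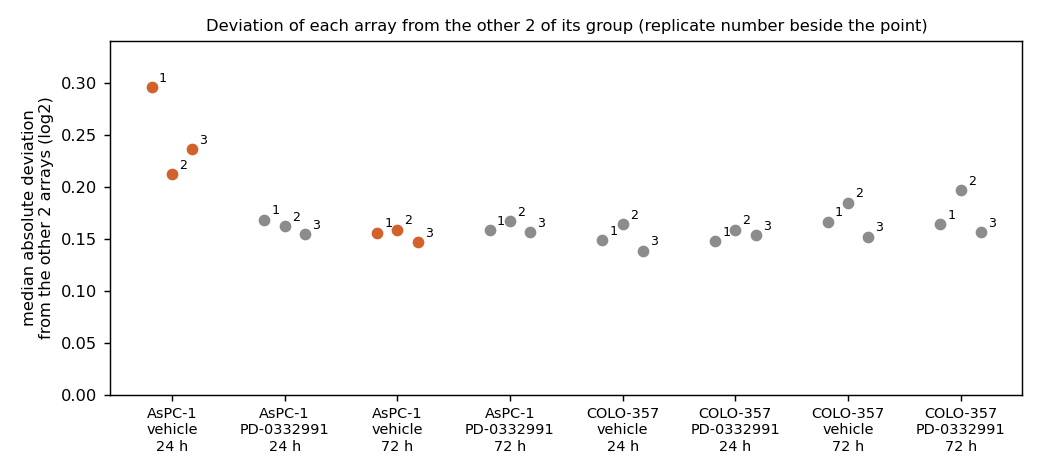
Each point is 1 of the 24 arrays, grouped by line, treatment and time on the x axis, and the y axis is the median over probes of the absolute log2 deviation from the other 2 arrays of the group. The 3 AsPC-1 vehicle arrays at 24 h lie at 0.212 to 0.296, above each array of the other 7 groups.

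A small part of the measured transcriptome was called as changed with time in culture without drug, and the larger called changes were mostly rises. Calls are probes with an adjusted p below 0.05 (limma on all 24 arrays, Benjamini-Hochberg over all tested probes). By this rule 535 probes changed, 2.16% of those tested, 335 of them higher at 72 h (1.35%) and 200 lower (0.808%). At least 2-fold changes were found for 128 of these probes (0.517%), 104 higher (0.42%) and 24 lower (0.097%), and the median absolute change of the called probes was 0.81 on the log2 scale. The 3 arrays at 72 h lay all above or all below the 3 arrays at 24 h for 527 of the 535 called probes, against 4292 of all tested probes (17.3%), 9.29% above and 8.05% below. In the same limma fit 4153 of the tested probes (16.8%) had an unadjusted p under 0.05, so probes not called are not shown to be unchanged. Of the 605 named genes 58 changed (9.59%), 42 higher and 16 lower, and 23 of the 42 and 3 of the 16 moved at least 2-fold. Of the called probes 66 had a name, and the other 469 had no name here. The 66 include dimmer probes of genes, INSIG1 among them, whose brightest probe was not called. The median change was 0.00 over all tested probes and 0.06 over the named genes.

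The number of calls differed widely between fits. The fit across all 8 groups used a pooled spread that was smaller than the one of the 24 h vehicle arrays. With the 2 groups fitted alone, 3 probes were called, those of DEFB1, GPX2 and MMP7, although 2422 probes and all 58 named genes had an unadjusted p under 0.05 there. With a weight estimated for each group (0.45 for the 24 h group and 1.12 for the 72 h group, an alternative added after the data were seen) 108 probes were called, among them 16 of the 42 genes that rose and 3 of the 16 that fell. Without 72 h replicate 2 the count was 144, without 72 h replicate 3 it was 309 and without 24 h replicate 2 it was 855. Without 24 h replicate 1, the noisiest array, it was 600, of which 313 were among the 535. The balance of directions also depended on the scaling, with 62.6% of calls higher after quantile normalisation, 77.2% higher after scaling to the 75th percentile and 93.7% higher in the authors' scaled values. The lower calls alone numbered 200, 70 and 50 under these scalings.

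**Figure D2:**
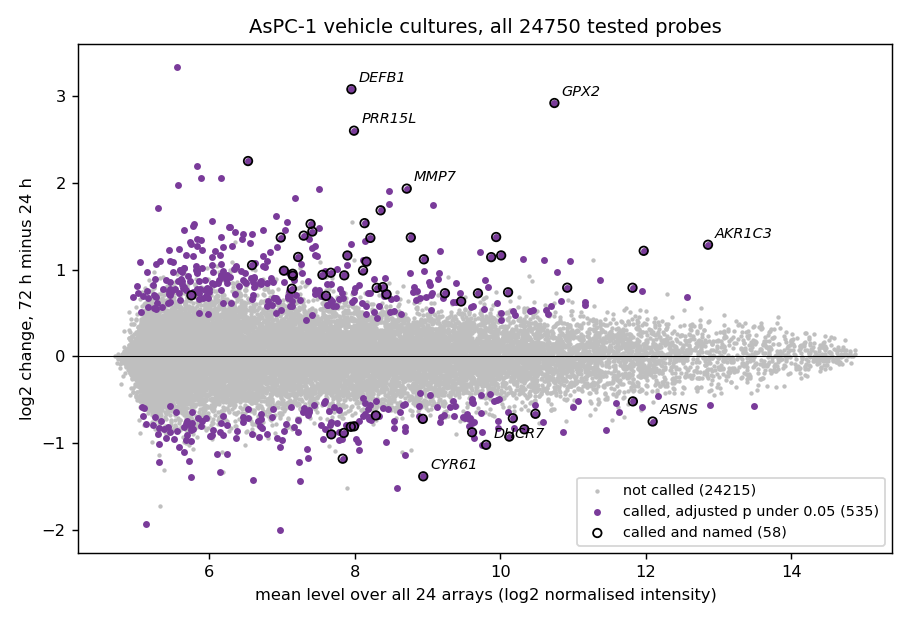
Each point is 1 of the 24750 tested probes, with the mean level over all 24 arrays on the x axis (log2 normalised intensity) and the log2 change from 24 h to 72 h in AsPC-1 vehicle cultures on the y axis. The 535 called probes are purple, the 58 called genes with a name are ringed, and the highest of them, DEFB1 at 3.08 and GPX2 at 2.92, stand well above the bulk of the probes.

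Genes that protect cells from peroxides and reactive carbonyls had the highest share of members that rose among the gene lists with at least 3 named members. All 7 named members of the list of glutathione, oxidative stress and drug metabolism genes (60 symbols fixed) had a positive change, 4 rose, none fell, and their median change was 0.79, against 0.00 over all tested probes. Of the 7, 3 were named only through lists without AsPC-1 vehicle arrays, and 2 of these rose (median 0.79). The others were named through the authors' AsPC-1 drug lists, which were chosen on AsPC-1 vehicle arrays compared here, so the share is not independent of them. Of all tested probes 1.35% were called higher, and of all named genes 6.94%. GPX2, the gastrointestinal glutathione peroxidase, which reduces hydrogen peroxide and lipid peroxides with glutathione, had normalised log2 levels of 7.27, 6.79 and 6.68 in the 24 h replicates and 9.64, 9.88 and 9.98 in the 72 h replicates. The lowest 72 h array was thus far above the highest 24 h array. The rise was 2.92 ± 0.20 (n = 3 and 3, with the SE, here and below, from the spread pooled over all groups), or 7.57-fold. Its adjusted p was 3.6e-08, and the rise remained between 2.80 and 3.11 when any array was left out. ALDH1A1, an aldehyde dehydrogenase that oxidises retinal and other aldehydes, had levels of 7.28, 6.49 and 7.62 at 24 h and 8.24, 8.70 and 8.58 at 72 h. The groups did not overlap, and the change was 1.38 ± 0.29 (adjusted p = 0.013), with 1.76 at a second probe of the gene. AKR1C3, an aldo-keto reductase of steroid, prostaglandin and carbonyl metabolism, rose from 11.52, 10.85 and 10.97 to 12.11, 12.54 and 12.54, by 1.29 ± 0.20 (adjusted p = 0.0011). The 72 h arrays were all above the 24 h arrays, but the AKR1C genes are near-identical in sequence and the probe may read several of them. AKR1B10, which reduces retinal and lipid-derived aldehydes, rose by 0.79 ± 0.17 (adjusted p = 0.016). The other 3 members, ALDH3B1 at 0.69, ALDH3A1 at 0.49 and the cytochrome P450 gene CYP3A5 at 0.47, did not pass the test. Without 72 h replicate 2 the adjusted p was 0.079 for ALDH1A1 and 0.094 for AKR1B10, and without 72 h replicate 3 it was 0.058 for AKR1B10.

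GPX2 had the lowest adjusted p among the named genes and is a known target of the factor NRF2, which binds antioxidant response motifs, so its promoter is shown. The sequence is RefSeq's for GRCh38.p14, chr14:64942696-64942995 on the minus strand, from 250 bases before to 50 bases after the gene's start, and capitals mark the only match to TGACNNNGC on either strand.
GPX2: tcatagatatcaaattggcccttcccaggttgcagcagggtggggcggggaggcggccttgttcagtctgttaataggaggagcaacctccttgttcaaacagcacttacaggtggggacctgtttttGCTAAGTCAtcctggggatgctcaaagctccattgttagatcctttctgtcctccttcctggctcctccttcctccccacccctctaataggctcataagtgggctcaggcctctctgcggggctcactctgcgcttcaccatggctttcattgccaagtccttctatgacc
The match began 122 bases before the start and overlapped no other motif searched. This motif was found in 16.1% of the promoters of 27305 symbols, in 5 of the 28 promoters of genes that rose and in 3 of the 10 of genes that fell, among the 416 named genes whose promoter was in the table. A match is a description of the letters and does not show that a factor binds there.

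In the list of cytokines and secreted inflammatory factors the defensin gene DEFB1, the complement gene CFB and RARRES3 rose, while the cytokine genes CCL5, IL32 and IL8 did not pass. Of the 8 named members of that list (56 symbols fixed), 3 rose and none fell, and the median change was 0.51. DEFB1, which encodes the antimicrobial peptide beta-defensin 1 of epithelial surfaces, had the largest change of all named genes. Its levels were 6.49, 6.38 and 7.09 at 24 h and 9.38, 10.12 and 9.70 at 72 h, so the groups were far apart, and it rose 8.45-fold (3.08 ± 0.32, adjusted p = 1.7e-05). CFB, complement factor B of the alternative pathway, had levels of 9.90, 8.93 and 9.40 at 24 h and 10.50, 10.97 and 10.87 at 72 h. The groups were separate and the change was 1.37 ± 0.23 (adjusted p = 0.0024). RARRES3 (now PLAAT4), a retinoid-inducible phospholipase, rose by 1.12 ± 0.22 (adjusted p = 0.009, and 0.064 without 72 h replicate 2). The other members, which did not pass, were RARRES1 at 1.32, a gene whose 72 h arrays (6.43 to 6.76) all lay above the 24 h arrays (5.06 to 5.58) with an adjusted p of 0.13, CCL5 at -0.10, IL32 at -0.14, IL20RB at -0.27 and IL8 (CXCL8, a neutrophil chemokine) at -0.70. Angiogenin, ANG, a secreted ribonuclease with antimicrobial activity that the list did not hold, had levels of 7.71, 8.15 and 8.17 at 24 h and 9.19, 9.79 and 9.66 at 72 h. Its groups were separate and it rose by 1.54 ± 0.31 (adjusted p = 0.011, and 0.075 without 72 h replicate 2).

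Interferon-induced genes mostly did not pass the test, and the same held for all named genes, of which 6.94% were called higher and 2.64% lower. Of 12 named members (61 symbols fixed) 1 rose and none fell, and the median change was 0.21 (0.13 without 24 h replicate 2 and 0.07 without 24 h replicate 3). The member that rose was UBE2L6, the conjugating enzyme of the ubiquitin-like modifier ISG15, with levels of 8.07, 8.26 and 8.67 at 24 h and 9.18, 9.63 and 9.62 at 72 h. Its change was 1.14 ± 0.17 (adjusted p = 8.6e-04) with separate groups, but a second, dimmer probe of the gene gave 0.50 and did not pass. The preset interferon-stimulated genes did not pass in either direction, with IFIT3 at -0.36 (0.09 at a second probe), OASL at -0.32, HERC5 at 0.02 and SLFN11 at 0.35. Over all 12 members 8 changes were positive and 4 negative. The 3 antigen presentation genes HLA-DRA, PSMB10 and PSMB9 had changes of 0.23, 0.32 and 0.44 and did not pass.

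Proteases moved in opposite directions, with the matrix metalloproteinase matrilysin up and the urokinase gene down. Of 6 named members of the protease and inhibitor list (49 symbols fixed) 2 rose and 1 fell. The 2 of them named only through lists without AsPC-1 vehicle arrays gave 1 rise and no fall. MMP7, matrilysin, a secreted metalloproteinase of glandular epithelium that cleaves matrix and cell-surface proteins, had levels of 8.33, 8.55 and 8.62 at 24 h and 10.27, 10.57 and 10.46 at 72 h. Both groups were tight (SD 0.15 at each time) and lay far apart. The rise was 1.93 ± 0.25, 3.82-fold, with an adjusted p of 1.7e-04, and a second probe gave 1.90. CTSH, the lysosomal aminopeptidase cathepsin H, rose by 0.99 ± 0.19 (adjusted p = 0.0065). PLAU, urokinase, which activates plasminogen at the cell surface, fell from 10.90, 10.62 and 10.52 to 10.15, 9.45 and 9.81, a change of -0.88 ± 0.21 (adjusted p = 0.033) with separate groups. It lost the call without 24 h replicate 1 (adjusted p = 0.092), 72 h replicate 2 (0.18) or 72 h replicate 3 (0.084). The maspin gene SERPINB5 at -0.73 and the carboxypeptidase CPA4 at -0.34 did not pass.

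The MMP7 promoter is known for a proximal AP-1 element, which makes it the counterpart to the AP-1 subunit gene JUN described below, so the sequence is shown with matches to TGANTCA in capitals. It is RefSeq's for GRCh38.p14, chr11:102530698-102530997 on the minus strand, over the same window.
MMP7: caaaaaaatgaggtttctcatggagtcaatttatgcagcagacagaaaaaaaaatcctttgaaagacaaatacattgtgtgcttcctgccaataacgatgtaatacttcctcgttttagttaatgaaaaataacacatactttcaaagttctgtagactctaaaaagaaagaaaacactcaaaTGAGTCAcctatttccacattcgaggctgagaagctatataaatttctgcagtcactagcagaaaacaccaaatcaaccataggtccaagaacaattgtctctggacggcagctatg
The single match began 67 bases before the start and overlapped no other motif searched. TGANTCA was in 9.37% of all promoters, in 4 of the 28 of genes that rose and in none of the 10 of genes that fell.

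Among genes of epithelial differentiation the brush border gene VIL1 passed, and tight junction genes did not. VIL1 encodes villin, the actin-bundling protein of microvilli, and is 1 of 5 named members of the brush border, mucin and secretory list (62 symbols fixed), of which 1 rose and none fell. Its levels were 6.94, 4.86 and 5.63 at 24 h, where it was detected on 2 of 3 arrays, and 6.97, 7.70 and 7.33 at 72 h. Replicate 1 at 24 h was nearly as high as the lowest 72 h array, so the groups only just did not overlap. The rise was 1.53 ± 0.31 (adjusted p = 0.0097, and 0.076 without 72 h replicate 2). This SE came from the spread over all 8 groups, while the 24 h arrays of VIL1 ranged from 4.86 to 6.94. With the 2 groups fitted alone VIL1 was not called. AGR2, a disulphide isomerase of mucus-secreting cells, had levels of 11.77, 11.94 and 12.34 at 24 h and 12.98, 13.17 and 13.23 at 72 h. Its groups did not overlap, but the change of 1.11 ± 0.53 did not pass (adjusted p = 0.29). Its SE came from the spread over all 8 groups, while the SDs of these arrays were 0.29 at 24 h and 0.13 at 72 h. The myosin gene MYO1A at 0.33, the mucin gene MUC5AC at -0.18 and the carbonic anhydrase CA2 at -0.46 did not pass. Of 6 named junction and polarity genes none rose or fell, with CLDN1 at -0.07, CLDN7 at -0.12, CEACAM1 at -0.05, PCDH7 at 0.07, CADM4 at 0.42 and TJP3 at 0.44.

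The remaining large rises had no list in common. PRR15L had levels of 6.68, 6.39 and 6.36 at 24 h and 8.60, 9.65 and 8.98 at 72 h, a rise of 2.60 ± 0.37 or 6.07-fold (adjusted p = 5.5e-04). TMEM86B, which encodes a lysoplasmalogenase, an enzyme of ether lipid breakdown, had 6.34, 7.32 and 7.39 at 24 h and 8.85, 9.67 and 9.28 at 72 h, a rise of 2.25 ± 0.40 (adjusted p = 0.0041). In both genes all 72 h arrays lay well above all 24 h arrays. C13orf15 (now RGCC, a regulator of the cell cycle and a complement response gene) was detected on 2 of 3 arrays at 24 h and rose from 5.66, 5.60 and 5.17 to 6.92, 7.37 and 7.19, by 1.68 ± 0.18 (adjusted p = 1.7e-05). ARSD, arylsulfatase D, was at 6.13, 6.07 and 6.07 at 24 h and at 7.28, 7.33 and 7.78 at 72 h, a rise of 1.37 ± 0.14 (adjusted p = 1.7e-05). Its 24 h arrays were close together (SD 0.04) and all lay below the 72 h arrays. DEPDC6 (now DEPTOR, an inhibitor of the growth kinase mTOR) rose by 1.39 ± 0.25 (adjusted p = 0.0048) and MGC13057 by 1.44 ± 0.32 (adjusted p = 0.018). Without 24 h replicate 1 or 72 h replicate 2 the adjusted p of MGC13057 was 0.078 or 0.12.

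**Figure D3:**
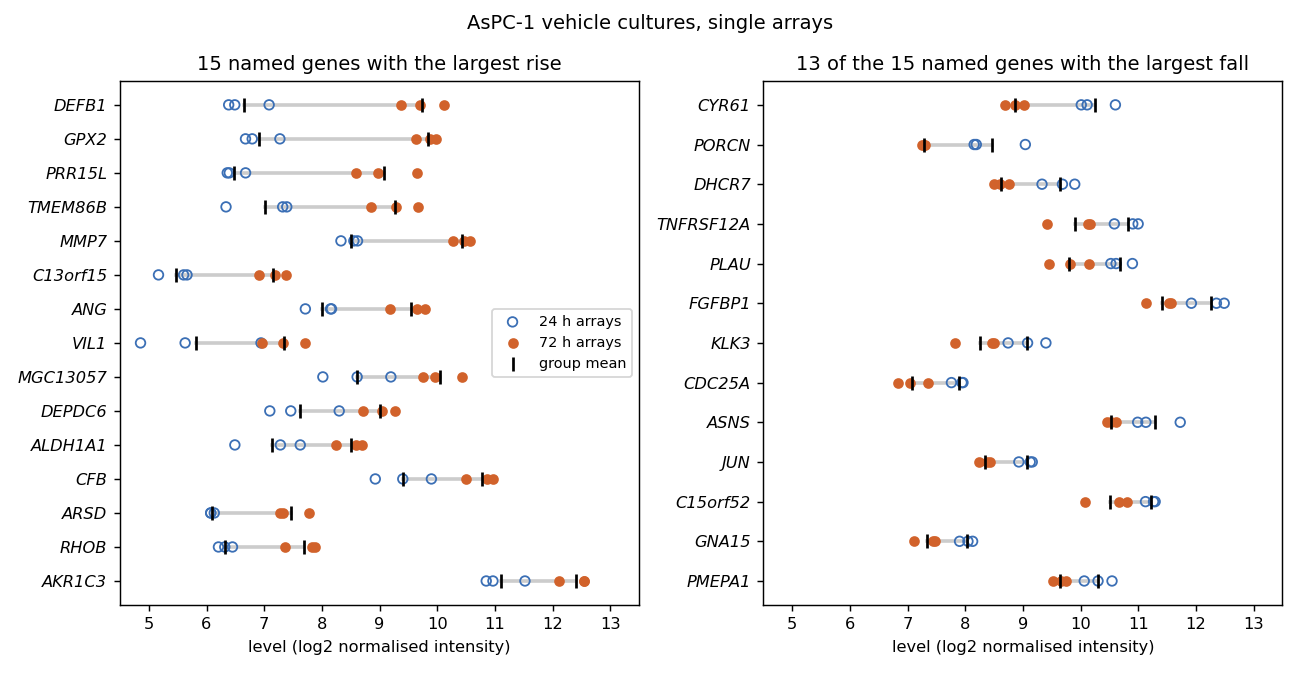
The x axis is the log2 normalised intensity, open blue points are the 3 arrays at 24 h, filled orange points the 3 arrays at 72 h and black ticks the group means, for the 15 named genes with the largest called rise (left) and 13 of the 15 with the largest called fall (right) among those with separate groups. The rises reach 3.08 for DEFB1, the falls reach -1.38 for CYR61, and VIL1 is the gene whose groups come closest.

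Among serum and growth-factor response genes CYR61 and JUN fell and RHOB rose. Of 6 named members (49 symbols fixed) 2 fell and 1 rose, and the median change was -0.57. The 3 of them named only through lists without AsPC-1 vehicle arrays gave 1 rise and no fall, with a median of 0.49. The negative median thus rests on members named through the authors' AsPC-1 drug lists, which are not independent of these arrays. CYR61 (now CCN1), a secreted matricellular protein induced by serum and by the YAP coactivator, had levels of 10.60, 10.01 and 10.11 at 24 h and 9.02, 8.70 and 8.86 at 72 h. All 72 h arrays lay below all 24 h arrays, and the change was -1.38 ± 0.29 (adjusted p = 0.012), the largest fall of a named gene. JUN, a subunit of the AP-1 transcription factor, had levels of 9.16, 8.93 and 9.13 at 24 h and 8.43, 8.24 and 8.38 at 72 h. Its change was -0.72 ± 0.18 (adjusted p = 0.036) with separate groups. The phosphatase gene DUSP1, which switches off MAP kinases, had 10.32, 10.58 and 10.37 at 24 h and 9.67, 9.64 and 9.92 at 72 h but did not pass (-0.68, adjusted p = 0.095), and neither did SGK1 at -0.47 or ETV4 at 0.49. RHOB, a small GTPase induced by growth factors and by stress, was higher, at 7.36, 7.83 and 7.88 against 6.32, 6.45 and 6.21 at 24 h. Its change of 1.36 ± 0.36 only just passed (adjusted p = 0.047) and lost the call when any single array was left out (adjusted p from 0.054 to 0.16). CYR61 lost it without 72 h replicate 2 (0.076), and JUN kept it only without 24 h replicate 2, with 0.063 to 0.14 when any of the other 5 arrays was left out.

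The lists of TGF-beta targets, of mesenchymal and cytoskeletal genes and of basement membrane genes had negative medians, and only PMEPA1 among their members passed. PMEPA1, a transmembrane protein that feeds back on TGF-beta signalling, fell by 0.66 ± 0.16 on the log2 scale (adjusted p = 0.034, 10.54, 10.30 and 10.06 at 24 h against 9.75, 9.51 and 9.66 at 72 h), and its second probe gave -0.77. The groups were separate, but the call was lost when any array except 24 h replicate 3 was left out (adjusted p from 0.051 to 0.15). It was the 1 member of the 6 named TGF-beta targets that passed, and their median was -0.60. None of the 10 mesenchymal and cytoskeletal genes passed, although 9 of 10 changes were negative (median -0.57), with the repressor SNAI2 at -0.53, CAV1 at -0.31, NT5E at -0.07 and ACTA2 at 0.18. None of the 5 basement membrane and hemidesmosome genes passed, and all 5 changes were negative (median -0.64), from the laminin gene LAMA3 at -1.10 to the collagen gene COL17A1 at -0.14. Some genes, LAMB3 among them, stand in more than 1 of these lists, so the medians share members. Members named only through lists without AsPC-1 vehicle arrays had medians of -0.24 (2 TGF-beta targets) and -0.18 (3 mesenchymal genes). Only 1 basement membrane gene, at -0.14, was named that way. The other members were named through the authors' AsPC-1 drug lists, which are not independent of these arrays. Without 24 h replicate 1 the median of the mesenchymal list was -0.32 and that of the basement membrane list -0.18.

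Several other surface and signalling genes fell. PORCN, the acyltransferase that Wnt proteins need for secretion, was at 9.04, 8.19 and 8.15 at 24 h and at 7.29, 7.30 and 7.26 at 72 h, a change of -1.18 ± 0.24 (adjusted p = 0.011). The 72 h arrays were nearly equal (SD 0.02) and all below the 24 h arrays. TNFRSF12A, the receptor of the cytokine TWEAK, changed by -0.93 ± 0.19 (adjusted p = 0.012) and FGFBP1, a secreted carrier of fibroblast growth factors, by -0.84 ± 0.16 (adjusted p = 0.0061), and each had separate groups. FGFBP1 and CYR61 were the 2 of 4 named insulin-like growth factor and secreted growth modulator genes that fell, and IGFBP1 at 0.13 and IGFBP3 at 0.18 did not pass. The kallikrein gene KLK3 at -0.81, C15orf52 (now CCDC9B) at -0.71 and the G protein alpha subunit gene GNA15 at -0.68 passed with adjusted p of 0.025, 0.034 and 0.044. Without 72 h replicate 2 PORCN, TNFRSF12A, FGFBP1, KLK3, C15orf52 and GNA15 lost the call, with adjusted p from 0.053 for PORCN to 0.20 for C15orf52. KLK3 and C15orf52 also lost it without 24 h replicate 1 (0.089 and 0.071), C15orf52 and GNA15 without 24 h replicate 3 (0.069 and 0.097) and 72 h replicate 3 (0.054 and 0.078), and GNA15 without 24 h replicate 2 (0.067) and 72 h replicate 1 (0.062).

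Metabolic genes gave single calls. The sterol list and the amino acid and unfolded protein stress list had medians of -0.35 and -0.37, with 6 of 8 changes negative in each. When an array was left out, these medians ran from -0.37 to -0.28 and from -0.39 to -0.33. The 3 sterol genes named only through lists without AsPC-1 vehicle arrays had a median of -0.36. No member of the amino acid and unfolded protein stress list was named that way, so its median is not independent of these arrays. DHCR7, the enzyme of the last step of cholesterol synthesis, had levels of 9.90, 9.33 and 9.68 at 24 h and 8.49, 8.76 and 8.60 at 72 h. Its change was -1.02 ± 0.15 (adjusted p = 5.8e-04), and the groups were separate. It remained called when any array was left out. In the same list of 8 named sterol genes (36 symbols fixed) the cholesterol exporter ABCG1 rose by 0.79 ± 0.14 (adjusted p = 0.0033, with 0.73 and no call at a second probe), and the others did not pass, among them INSIG1 at -0.69, HMGCS1 at -0.42, ACAT2 at -0.33, EBP at -0.18 and ABCA1 at 0.35. A second, dimmer probe of INSIG1, which encodes the sterol-sensing brake on cholesterol synthesis, did pass as lower, at -1.13 (adjusted p = 0.005). ASNS, asparagine synthetase, a target of the amino acid and unfolded protein stress response, had levels of 11.73, 11.13 and 10.99 at 24 h and 10.45, 10.61 and 10.53 at 72 h. It fell by 0.75 ± 0.15 on the log2 scale (adjusted p = 0.009) with separate groups, by 0.53 without 24 h replicate 1, and a second probe gave -0.31 and did not pass. The other 7 named members of that list (40 symbols fixed) did not pass, among them PSAT1 at -0.32, PCK2 at 0.26 and ADM2 at 0.42, although PSAT1 passed without 24 h replicate 1 (adjusted p = 0.034). CA9, a carbonic anhydrase of the cell surface and a standard hypoxia marker, rose by 1.16 ± 0.28 (adjusted p = 0.028), from a mean of 10.22 (SD 0.20) to 11.08, 11.63 and 11.44. It lost the call without 24 h replicate 2 (0.063), 72 h replicate 2 (0.14) or 72 h replicate 3 (0.084), and the other 3 named hypoxia and glycolysis genes did not pass, among them ALDOC at 0.04 and DDIT4 at -0.62. The metallothionein list had 4 named members and no call, with MT1A at 0.03 and MT2A at -0.11.

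The ASNS promoter holds a well-described stress-response element, and its sequence is shown with matches to TGATGNAA in capitals. It is RefSeq's for GRCh38.p14, chr7:97872359-97872658 on the minus strand, over the same window, and a second ASNS start in the table had no match.
ASNS: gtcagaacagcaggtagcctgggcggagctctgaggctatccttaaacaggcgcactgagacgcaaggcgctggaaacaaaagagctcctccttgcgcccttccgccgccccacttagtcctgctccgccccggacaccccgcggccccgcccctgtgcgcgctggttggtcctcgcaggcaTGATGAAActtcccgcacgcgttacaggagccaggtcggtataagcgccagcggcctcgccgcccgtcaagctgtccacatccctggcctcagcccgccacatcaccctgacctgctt
The single match began 68 bases before the start, overlapped no other motif searched, and TGATGNAA was in 4.46% of all promoters, in none of the 28 of genes that rose and in 1 of the 10 of genes that fell.

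Most proliferation genes did not pass the test between 24 h and 72 h, and the same held for all tested probes and all named genes. Of all tested probes 2.16% were called (1.35% higher), and of all named genes 9.59% (6.94% higher). Of 79 named mitosis and kinetochore genes (114 symbols fixed) 1 rose and none fell. Their changes, 58 positive and 21 negative, ran from -0.43 to 0.70 with a median of 0.10. That median was 0.21 without 24 h replicate 1 and 0.07 without 24 h replicate 2. None of the 24 named DNA replication genes passed (median -0.04, and -0.09 to 0.03 when an array was left out), with RRM2 at -0.35, TYMS at 0.21 and DUT at 0.38, and none of the 10 repair genes did, with BRCA1 at 0.54 (adjusted p = 0.072, and 0.018 without 24 h replicate 2) and BARD1 at 0.12. KIF20A, a kinesin of cytokinesis, had levels of 11.08, 10.42 and 10.73 at 24 h and 10.72, 10.98 and 10.65 at 72 h, and the survivin gene BIRC5 had 10.75, 11.04 and 10.87 against 10.70, 11.14 and 10.82. The groups overlapped in both genes, and the changes were 0.04 and 0.00. The mitosis gene that passed was FAM64A (now PIMREG, a mitotic regulator), from 7.97, 7.76 and 7.52 to 8.19, 8.69 and 8.47, by 0.70 ± 0.17 (adjusted p = 0.034). Of 8 named CDK4/6-RB pathway genes CDC25A, the phosphatase that activates CDK2, fell from 7.96, 7.76 and 7.94 to 7.04, 6.83 and 7.36, a change of -0.81 ± 0.21 (adjusted p = 0.045). FAM64A lost the call without 24 h replicate 3 (0.10), 72 h replicate 2 (0.17) or 72 h replicate 3 (0.092), and CDC25A without 24 h replicate 1 (0.090), 24 h replicate 3 (0.086), 72 h replicate 1 (0.097) or 72 h replicate 2 (0.19). Cyclin D1, CCND1, at -0.22, CCNE2 at -0.37 and CCNA2 at 0.14 did not pass. Of 4 named growth arrest genes YPEL5 rose by 0.93 ± 0.18 (adjusted p = 0.007, and 0.056 without 72 h replicate 2), and MXD4 at 0.28 and TXNIP at 0.17 did not pass. Neither did the apoptosis genes BIK at -0.17 and CASP9 at 0.10 or the nucleolar gene NOP56 at -0.04.

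**Figure D4:**
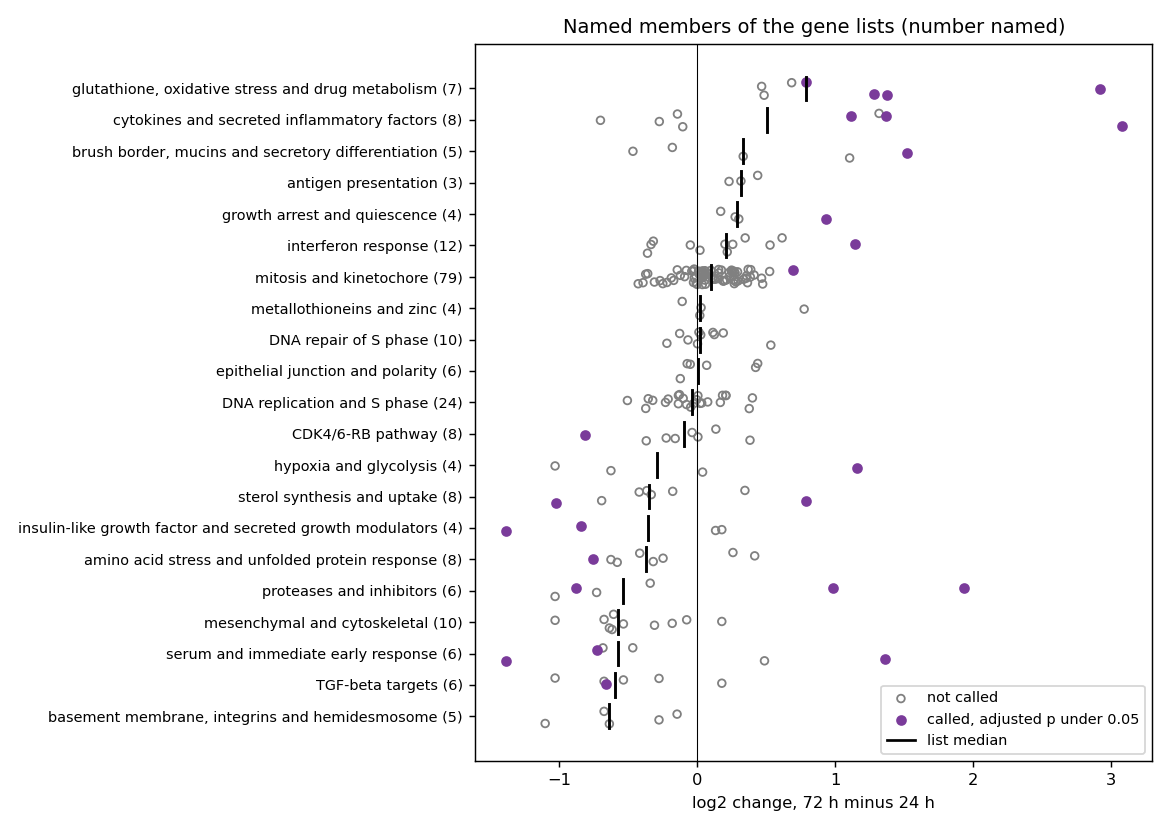
Each point is a named gene at its log2 change from 24 h to 72 h (x axis), in rows by gene list with the number of named members in brackets, filled where the gene was called, and the black tick is the list median. The glutathione and drug metabolism list lies wholly above 0 (median 0.79), the basement membrane list wholly below 0 (median -0.64, and -0.18 without 24 h replicate 1) and the 79 mitosis genes have a median of 0.10 (0.21 without that array).

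The same interval was then read in AsPC-1 cultures with PD-0332991, which share no array with the vehicle cultures. Over all tested probes the time change differed between vehicle and drug cultures for 762 probes (3.08%), 296 more positive in vehicle (1.2%) and 466 more negative (1.88%), a count that became 490 when vehicle 72 h replicate 2 was left out and 497 when drug 72 h replicate 1 was. Under drug itself 4.84% of the probes changed, 825 higher at 72 h (3.33%) and 373 lower (1.51%). Of the 42 genes that rose with vehicle, 8 also rose under drug, 3 fell and 18 had a called difference, and of the 16 that fell, none fell under drug, 3 rose and 8 had a called difference. These genes were chosen on the same vehicle arrays that enter the difference, so the shares are a description. The rise of DEFB1 was also seen under drug (2.08, adjusted p = 1.9e-04), with a difference of 1 ± 0.46 that did not pass (adjusted p = 0.29). MMP7 rose under drug by 0.88 (adjusted p = 0.042) with a difference of 1.05 ± 0.35 that did not pass (0.12). GPX2 moved less under drug, from a mean of 5.72, with 2 of 3 arrays detected, to 6.45, and its difference was 2.18 ± 0.29 (adjusted p = 7.8e-05). TMEM86B, at 6.75 and 6.87 under drug, differed by 2.12 ± 0.57 (adjusted p = 0.044), and the Golgi transport gene GOLT1A rose with vehicle by 0.96 and fell under drug by 0.78, a difference of 1.75 ± 0.21 (adjusted p = 4.5e-05). VIL1 was not above background on any of the 6 drug arrays, so no drug change is given for it.

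None of the 16 genes that fell with vehicle passed as a fall under drug. CYR61 had means of 10.41 and 10.87 under drug at 24 h and 72 h, against 10.24 and 8.86 with vehicle, and the changes differed by -1.85 ± 0.41 (adjusted p = 0.011). DHCR7 rose under drug by 0.87 and differed by -1.89 ± 0.21 (adjusted p = 2.1e-05), and JUN, PLAU and FGFBP1 differed by -1.20, -1.12 and -0.94 (adjusted p = 0.0077, 0.043 and 0.021). ASNS had means of 13.22 and 13.01 under drug against 11.28 and 10.53 with vehicle, and its time changes of -0.21 and -0.75 did not differ by the test (adjusted p = 0.19). Among cell-cycle genes with a negative difference were RRM2 at -2.78 ± 0.34, CCNE2 at -2.73 ± 0.40 and the centromere gene CENPA at -2.70 ± 0.33. None of these 3 passed with vehicle, and all 3 rose under drug, and CCNE2 was detected on 1 of 3 drug arrays at 24 h. CDC25A was not above background on any drug array at 24 h and was detected on all 3 at 72 h, so its difference rests on a value at background and is not given, and the same holds for FAM64A. COL4A1 was detected on 1 of the 6 vehicle arrays and on none of the drug arrays at 24 h, and no fold is given. In the other direction were HBA1 at 1.95 ± 0.30 and MYO1A at 1.87 ± 0.39, both of which fell under drug and did not pass with vehicle.

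COLO-357 vehicle cultures were compared over the same interval, a line kept in another medium, so that cell line and medium cannot be separated. The time change differed between the lines for 2071 probes (8.37%), 949 more positive in AsPC-1 (3.83%) and 1122 more negative (4.53%), a count that became 1380 when AsPC-1 72 h replicate 2 was left out and 1314 when COLO-357 24 h replicate 1 was. Of the 42 genes that rose in AsPC-1, 10 also rose in COLO-357, 1 fell and 20 had a called difference, and of the 16 that fell, 6 also fell, none rose and 3 had a called difference. These genes were chosen on the same AsPC-1 vehicle arrays that enter the difference, so the shares of called differences are a description. In COLO-357 itself 17.6% of the probes changed over this interval, 2420 higher (9.78%) and 1938 lower (7.83%), and the shared calls are read against those shares. CYR61 changed by -1.32 in COLO-357 (adjusted p = 0.0028) with a difference of -0.06 ± 0.41 (SE), and PMEPA1 by -0.62 (adjusted p = 0.011) with a difference of -0.04 ± 0.23. These differences were smaller than their errors. DHCR7, TNFRSF12A and FGFBP1 also fell in COLO-357, by 0.70, 0.68 and 0.57 on the log2 scale. The largest rises of AsPC-1 did not pass in COLO-357, with DEFB1 at -0.37, GPX2 at -0.10, MMP7 at 0.10 and TMEM86B at 0.07, and the differences passed for each of them. GPX2 was high in COLO-357 at both times (means of 14.23 and 14.13, against 9.83 at 72 h in AsPC-1), whereas the means of DEFB1 in COLO-357 (7.28 and 6.91) and of MMP7 (8.07 and 8.17) were below those of AsPC-1 at 72 h (9.73 and 10.43). Whether a rise of GPX2 could still have been measured at such a high level in COLO-357 was not tested. C13orf15 rose in both lines, by 1.68 in AsPC-1 and 0.85 in COLO-357.

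**Figure D5:**
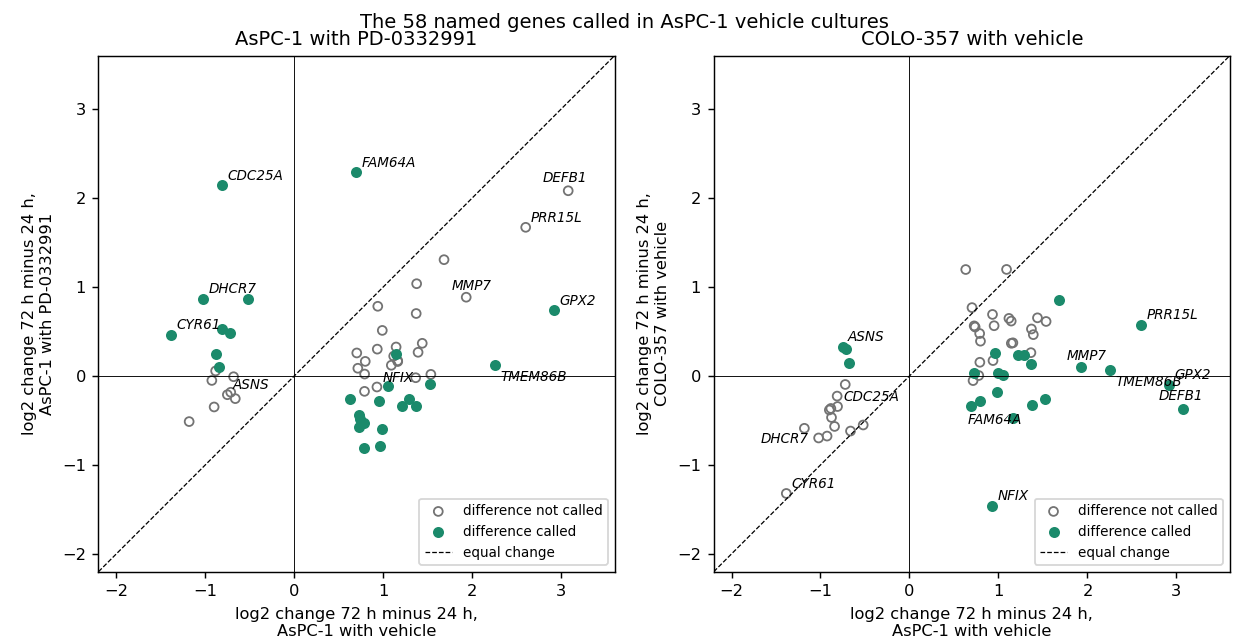
Each point is 1 of the 58 named genes called in AsPC-1 vehicle cultures, with its log2 change from 24 h to 72 h there on the x axis and its change in AsPC-1 with PD-0332991 (left) or COLO-357 with vehicle (right) on the y axis, filled where the difference of the changes was called. On the left DEFB1 and PRR15L lie at 2.08 and 1.67 under drug, and on the right CYR61 lies close to the line of equal change at -1.32 in COLO-357.

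How a gene came to have a name bears on these counts. The 349 genes named only through lists without AsPC-1 vehicle arrays gave 27 rises (7.74%) and 3 falls (0.86%). The 93 genes of the authors' AsPC-1 list at 72 h gave 13 and 10 (14% and 10.8%), but that list was chosen on the same 72 h vehicle arrays and is not independent of the comparison. The most frequent rises were among the 85 genes of a list headed A_cyclin, with 17 rises (20%) and 2 falls (2.35%). Its ratios are headed treated over control, it is read here as an AsPC-1 cyclin knockdown, and its arrays were not analysed here. For 82 of the 85 genes the probe used here is in the authors' deposited table of that knockdown, and the other 3, HBA2, PTTG1 and MMP7 (which rose), are there through a dimmer probe and are left out of the split that follows. Of these 82 genes 65 had a lower level in the knockdown by the authors' deposited table, and 16 of these rose with time and none fell (median change 0.32). Of the 17 genes that the authors' deposited table gives as higher in the knockdown, none rose and 2 fell, GNA15 among them (median change -0.20). DEFB1 had the lowest ratio in the authors' deposited table, 0.045 of its control, and TMEM86B, CFB, DEPDC6 and PRR15L had ratios of 0.35, 0.38, 0.44 and 0.5. Of the called probes without a name, the largest rises were 3.33 ± 0.30 for ILMN_1808249 and 2.19 ± 0.27 for ILMN_2294978, both detected on 1 of 3 arrays at 24 h. The largest falls were -2 ± 0.27 for ILMN_2376205 and that of ILMN_2376204, which was not above background on any 72 h array.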

How the data were processed

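Transcripts were measured on 24 arrays, 3 per group, of which the 6 AsPC-1 vehicle arrays carry the comparison. The deposited table holds 1 linear intensity per probe and array, not normalised per the file headers, with a detection p-value beside each. The scanner software and any background step are not stated in the sources used here. The authors' scaled intensity table equals that signal times 1 factor per array and served as an alternative. Per the file headers the authors' 6 lists give the ratio of treated over control, and they name 685 tested probes, of whose 605 symbols 462 were current in RefSeq, 75 older and 68 unmatched (these kept the deposited name). Background correction used neqc of limma 3.58.1 (R 4.3.3) with the detection p-values, followed by quantile normalisation and log2 values (offset 16). A probe was tested when at least 3 arrays had a detection p below 0.05. One linear model (lmFit, eBayes) gave each of the 8 groups a mean over all arrays (16 residual and 5.84 prior degrees of freedom), with two-sided tests and Benjamini-Hochberg adjustment over all tested probes. The number of arrays limits the precision. SEs and p-values rest on the spread between the labelled biological replicates pooled over all 8 groups, not on that of the AsPC-1 vehicle arrays alone. The steps were checked on simulated data.

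Where a gene had several named probes, the brightest on average stands for it. The text names the 15 largest called rises and falls with separate groups, called list members, preset genes of earlier work on the series, the 5 largest differences each way and 2 unnamed probes each way. Some genes that these rules or lists hold are counted but not reported here by name. Members, lists and rules were chosen with earlier results of these data known. Same-numbered arrays did not deviate together (r of -0.02, -0.03 and 0.00 for the 3 numbers), so the numbers do not pair the cultures. Alternatives were other scalings, background steps, filters, weights, a replicate block, fitting only the groups compared and leaving out each array. No sample column was left unused. Promoters are RefSeq's (GRCh38.p14). Plots used matplotlib 3.10.9 (Python 3.11.15).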

Additional observations from a re-analysis of the deposited data

Results flagged for a closer look

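Of the 605 genes with a name, 102 had a time change that differed between the AsPC-1 and COLO-357 vehicle cultures by the test of the difference itself (limma, adjusted p under 0.05 over all tested probes), and 23 of these changed in AsPC-1. The values below are for the 28 of them that the naming rules picked, of which 18 changed in AsPC-1. The naming rules drew in part on the same AsPC-1 vehicle arrays that enter the difference, so these values are a description. Each value is the change in AsPC-1 minus the change in COLO-357 on the log2 scale, and the lines were kept in different media. The difference was positive for 16 of the 28 genes. Among the genes with large rises in AsPC-1 it was 3.45 for DEFB1, 3.02 for GPX2, 2.18 for TMEM86B, 2.02 for PRR15L, 1.84 for MMP7, 1.78 for VIL1 and 1.70 for ALDH1A1. GPX2 was already high in COLO-357 at 24 h. The difference was 1.63 for CA9, 1.23 for ARSD, 1.05 for AKR1C3, 1.04 for FAM64A, 0.96 for CTSH, 0.83 for C13orf15 and 0.71 for GOLT1A. NFIX, a transcription factor gene, had 2.39, since it rose by 0.93 in AsPC-1 (adjusted p = 0.049) and changed by -1.46 in COLO-357. Its AsPC-1 call was lost without 24 h replicate 1 (0.17), 24 h replicate 2 (0.090), 72 h replicate 2 (0.18) or 72 h replicate 3 (0.15). LOC389342 had 2.12 through a change of -1.93 in COLO-357.

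The difference was negative for 12 genes. Of those that fell in AsPC-1 it was -1.08 for ASNS, -1.02 for C15orf52 and -0.82 for GNA15. The other 9 did not pass in AsPC-1 and rose in COLO-357, and their differences were -1.60 for ADAMTSL4, -1.47 for STMN3, -1.43 for TPM3, -1.41 for IL8, -1.38 for PMP22, -1.10 for CEACAM1, -1.08 for IFIT3, -0.99 for OASL and -0.89 for CASP9. With 3 arrays in each group no single array was tested as standing apart.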

How the results depend on the processing

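None of the 40 called genes named by rule changed direction under any alternative. Of these, 29 to 40 remained called under 9 settings (30 with 75th percentile scaling, 29 in the authors' scaled values, 38 without background correction, 38 with offset 50, 34 without the filter, 30 with array weights, 40 with the replicate block, 40 with probes detected on all 3 arrays of a compared group and 31 without 24 h replicate 1). They were 17 with group weights, 16 without 72 h replicate 2 and 3 with only the groups compared, where the 24 h spread enters unpooled. The 535 calls became 307 with 75th percentile scaling, 350 with array weights, 108 with group weights, 837 with probes detected on all 3 arrays and 3 with only the groups compared, and 144 to 855 when an array was left out. With the replicate block they were 872, 522 higher and 350 lower, with 26 named genes lower. The numbers are only shared labels, since the same-numbered arrays did not deviate together. Higher calls (335) became 739 in the authors' scaled values, 79 with group weights and 3 with the groups compared alone (105 to 435 leaving out an array). Lower calls (200) became 70 with 75th percentile scaling, 50 in the authors' scaled values, 334 without background correction, 340 with offset 50, 114 with array weights, 29 with group weights, 356 with probes detected on all 3 arrays and 0 with the groups compared alone (limma, 2422 probes at an unadjusted p under 0.05), and 39 to 420 leaving out an array. Calls of at least 2-fold (128) became 39, 33, 61, 67 and 3 in the authors' scaled values, without background correction, with offset 50, with group weights and with the groups compared alone (81 to 220 leaving out an array). Named genes higher (42) became 69 in the authors' scaled values, 16 with group weights and 3 alone (15 to 43). Named genes lower (16) became 7, 6, 9, 3 and 0 with 75th percentile scaling, the authors' scaled values, array weights, group weights and the groups alone (2 to 18). The line difference (2071) became 912 with the groups compared alone (1314 to 2618), and the drug difference (762) became 466, 450, 462 and 365 with 75th percentile scaling, the authors' scaled values, group weights and the groups alone (490 to 1019). Apart from fewer samples in the fits, the causes were not tested. Dim probes near background and the 3 arrays a group limit what could be seen.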

Other observations

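Some named genes outside the naming rule share a known pathway with genes described above, and they were chosen after their values were seen. CFD, complement factor D, the protease that cleaves factor B, had levels of 11.58, 11.65 and 11.42 at 24 h and 12.18, 12.45 and 12.25 at 72 h. All 72 h arrays were above all 24 h arrays, and the rise was 0.74 ± 0.16 (limma, adjusted p = 0.013), beside 1.37 for CFB. Under drug CFD changed by -0.48, and the difference of the changes was 1.22 ± 0.22 (adjusted p = 0.0019). UBA7, the activating enzyme of ISG15, had 6.68, 6.21 and 5.40 at 24 h, with 2 of 3 arrays detected, and 6.89, 7.56 and 7.27 at 72 h. Its groups did not overlap and it rose by 1.14 ± 0.24 (adjusted p = 0.013), beside the same size of change for the ISG15 conjugating enzyme UBE2L6. The SE was pooled over all groups, while the 24 h arrays of UBA7 ranged from 5.40 to 6.68.

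PDK4, the kinase that holds pyruvate dehydrogenase inactive, had 8.13, 7.72 and 8.02 at 24 h and 8.69, 9.13 and 8.91 at 72 h, a rise of 0.95 ± 0.21 (adjusted p = 0.018) with separate groups. The Wnt receptor gene FZD7 rose by 0.94 ± 0.20 (adjusted p = 0.014), and the Wnt target AXIN2, at 0.80, did not pass (adjusted p = 0.21). These 4 calls were lost without 72 h replicate 2 (adjusted p of 0.092 for CFD, 0.094 for UBA7 and 0.11 for PDK4 and FZD7). Some were also lost without 24 h replicate 3 (UBA7), 24 h replicate 2 (PDK4) or 72 h replicate 3 (PDK4 and FZD7).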
